A study of Mus musculus with 6 samples.

Results

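The genes described here are the mouse replication-dependent histone genes, which encode the core histones H2A, H2B, H3 and H4 and the linker histone H1. They were taken as every row of the deposited annotated table whose only gene symbol begins with Hist1h, Hist2h, Hist3h or Hist4h. This gave 62 symbols, of which 61 had values on the 6 arrays, among 21626 genes tested in all. The transcript cluster of Hist1h3b is not among the rows with values. By class the 61 genes comprise 5 of H1, 16 of H2A, 17 of H2B, 11 of H3 and 12 of H4. By locus 48 belong to the Hist1 cluster on chromosome 13, 9 to Hist2 on chromosome 3, 3 to Hist3 on chromosome 11 and 1 to Hist4 on chromosome 6.

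Total RNA from the livers of wild-type mice of 12 to 14 weeks, either Fasted or Refed, was hybridised to Affymetrix Mouse Gene 1.0 ST arrays. RNA of 3 mice of a condition was pooled for each array, so that 9 mice in each condition gave 3 Fasted and 3 Refed arrays. A pool hides the differences among its own mice, and p-values measure the spread between pools. How long the mice were fasted and refed, their sex and the time of day are not given in the sources used here.

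Core histones package DNA into nucleosomes, and H1 binds the linker DNA between them. Most of the histone that a cell needs is made while it copies its DNA, from many small intronless genes that lie in clusters. Their mRNAs end in a stem-loop in place of a poly(A) tail, and the stem-loop-binding protein Slbp takes them through processing and translation. Some of these genes also give polyadenylated transcripts in cells that do not divide. Most hepatocytes of an adult liver are not dividing.

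Changes are given as the Fasted mean minus the Refed mean of log2 values, with 95% confidence intervals and p-values from limma, adjusted over all 21626 genes by the Benjamini-Hochberg method. Of the 61 histone genes, 1 was lower in Fasted livers at an adjusted p under 0.05, the H3 gene Hist2h3c1, and 0 were higher. Across all genes tested 1.61 percent were lower and 1.38 percent higher by the same criterion, 2.99 percent in either direction, so the share of histone genes called, 1.64 percent lower, was near the background. The histone genes leaned to lower values in Fasted livers without passing the test. Their change was negative for 48 of 61 genes (78.7 percent), whereas 53.0 percent of all genes tested had a negative change. The median change was -0.16 for the histone genes and -0.0095 for all genes tested. At an unadjusted p under 0.05, 19 histone genes (31.1 percent) were lower and 0 were higher, against 7.74 percent lower and 6.32 percent higher over all genes. All 3 Fasted arrays lay below all 3 Refed arrays for 18 histone genes (29.5 percent) and above them for 0, whereas 10.7 percent of all genes lay below and 8.13 percent above. These shares describe genes that share sequence, chromosome clusters and arrays, and the genes are not independent of each other. Most differences were small: the 95% interval of 46 of the 61 genes stayed within 0.5 on either side of no change, and that of 58 stayed within 1.

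**Figure D1:**
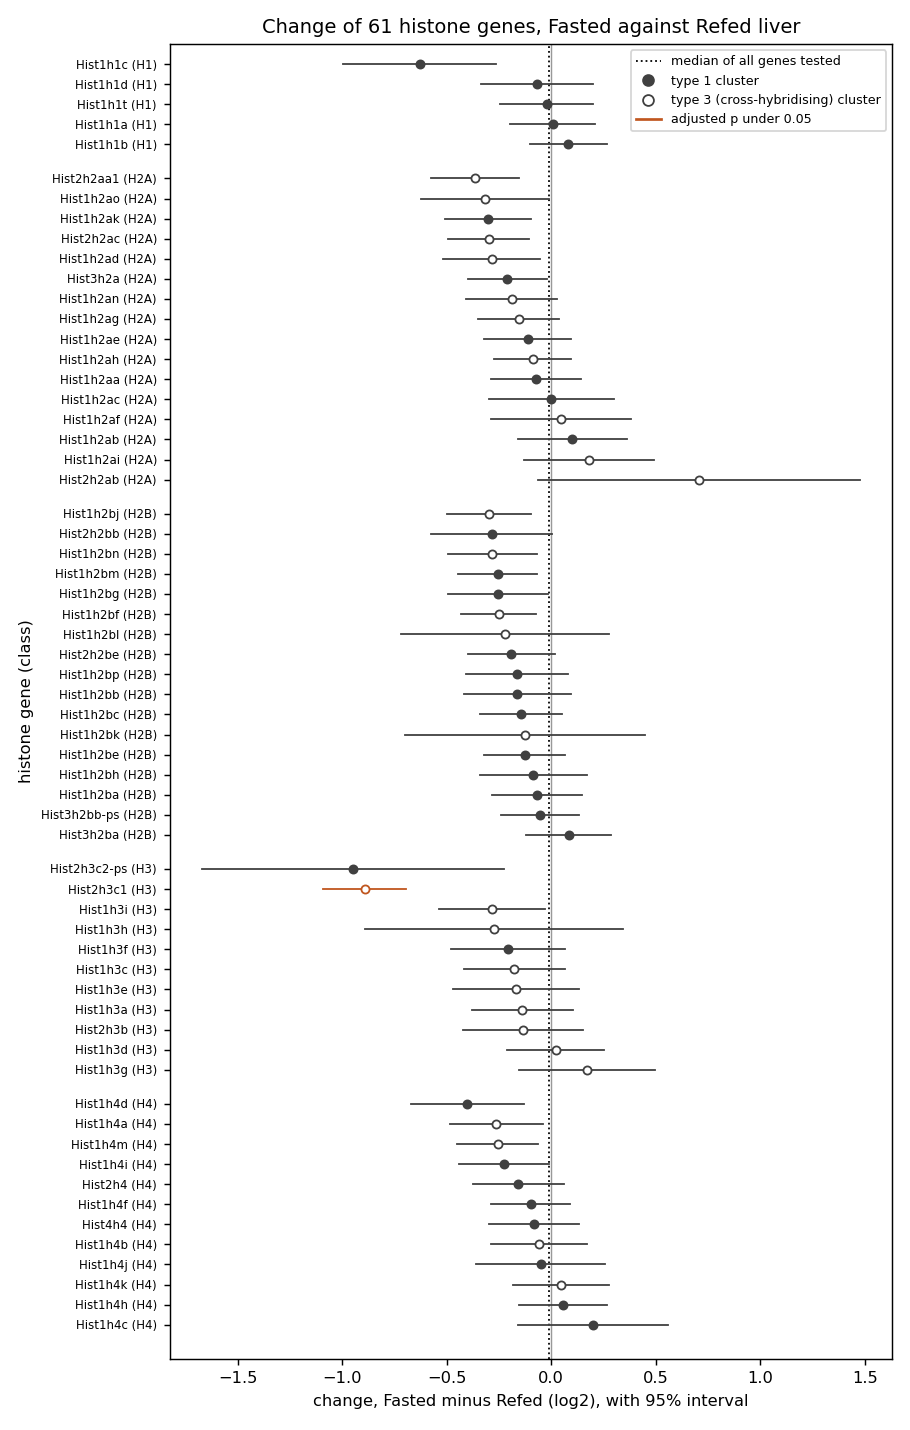
Change of each of the 61 histone genes (x axis, Fasted minus Refed, log2) with its 95% interval, grouped by class, with type 1 transcript clusters as filled points and cross-hybridising type 3 clusters as open points. Of the 61 points, 48 lie below 0, and the interval of Hist2h3c1 is the only one marked as called.

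Histone genes are hard to tell apart on an array because their coding sequences are near-identical within a class. The annotated table gives each transcript cluster a cross-hybridisation type, in which type 1 probes match a single transcribed sequence and type 3 is a mixture of unique and shared probes. Of the 61 genes, 33 were read by a type 1 cluster and 28 by a type 3 cluster. The annotated table also holds a mean named livWTR, the authors' mean of log2 values, which was set beside the mean of the Refed arrays for the same identifier. For type 1 genes the absolute difference between the tables had a median of 0.068, and for type 3 genes a median of 1.01. It exceeded 1 for 14 genes, all of type 3, with the Refed mean lower by between 1.06 and 6.54. Refed means of the 28 type 3 genes ran between 3.60 and 11.5 in the value table, whereas their livWTR means ran between 9.54 and 11.8. Among the 35 type 3 clusters of the annotated table, 15 had a livWTR mean within 0.01 of that of another cluster of the same class. Of the 31 type 3 clusters with values on the arrays, 0 had a Refed mean that close to another of their class. Where probes are shared, the signal of a gene and that of its relatives cannot be told apart. Why the tables differ was not tested.

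**Figure D2:**
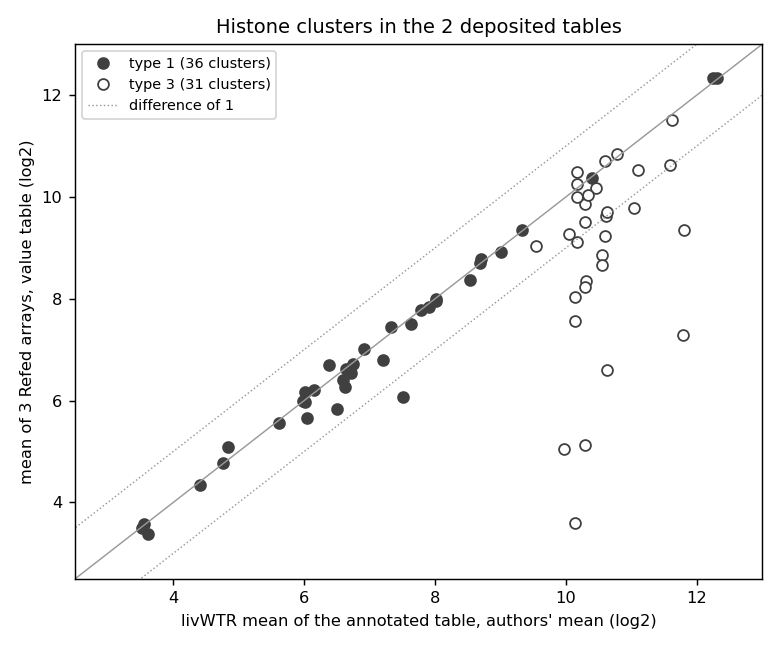
Mean of the 3 Refed arrays in the value table (y axis, log2) plotted over the livWTR mean, taken from the annotated table (x axis, log2), for 67 histone transcript clusters, with type 1 clusters filled and type 3 clusters open. Of the 36 type 1 clusters 34 lie within 0.5 of the diagonal and 1 lies more than 1 from it, whereas 9 of the 31 type 3 clusters lie within 0.5 and 15 more than 1 from it.

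The lean to lower values was present in both types. Among the 33 type 1 genes 26 had a negative change, the median was -0.11, and 8 (24.2 percent) had all Fasted arrays below all Refed arrays. Among the 28 type 3 genes 22 had a negative change, the median was -0.18, and 10 (35.7 percent) had all Fasted arrays below. Over all genes tested 10.7 percent had all Fasted arrays below, and 53.0 percent had a negative change. Leaving out the 14 genes on which the tables differ by more than 1 left 47 genes with a median of -0.16. Of the 40 histone genes above the median signal of the array, 18 had all Fasted arrays below all Refed arrays, whereas 0 of the 21 at or below that signal did. Over all genes tested the shares were 14.41 percent above that signal and 5.81 percent at or below it, and the difference between histone genes and other genes was not tested.

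H3 histones form, with H4, the tetramer at the centre of the nucleosome, and the gene with the smallest p-value encodes one of them. Hist2h3c1, an H3.2 gene on the plus strand at chr3:96050608-96052427 (NCBIM37), had log2 values of 8.03, 8.19 and 8.20 on the Fasted arrays, against 8.99, 8.997 and 9.11 on the Refed arrays. The groups were separated by more than the spread within either. Its change was -0.89 (95% interval -1.09 to -0.69, limma adjusted p = 0.00083), a level 1.86 times lower in Fasted livers. It is read by a type 3 cluster whose Refed mean lies 0.50 below its livWTR mean.

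The other H3 gene with a change of this size was Hist2h3c2-ps, which carries a pseudogene symbol and is listed as the protein-coding gene H3c15 in RefSeq. Its type 1 cluster, on the minus strand at chr3:96042039-96043050, had values of 5.49, 4.997 and 4.66 in Fasted livers and 5.74, 5.36 and 6.89 in Refed livers. Fasted 1 lay above Refed 2, so the groups overlapped, and Refed 3 stood highest. The change of -0.95 (interval -1.67 to -0.23) did not pass the test (adjusted p = 0.19). Without Refed 2 it did, at a change of -1.27 and an adjusted p of 0.034, and without Refed 3 the change was -0.50.

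Promoter sequences are shown for these H3 genes because they had the largest negative changes of the 61 genes. The 250 bases before the annotated start are given 5' to 3' on the strand of the gene, from RefSeq on GRCm38.p6, at chr3:96246435-96246684 on the plus strand for Hist2h3c1 and at chr3:96239128-96239377 on the minus strand for Hist2h3c2-ps.
Hist2h3c1: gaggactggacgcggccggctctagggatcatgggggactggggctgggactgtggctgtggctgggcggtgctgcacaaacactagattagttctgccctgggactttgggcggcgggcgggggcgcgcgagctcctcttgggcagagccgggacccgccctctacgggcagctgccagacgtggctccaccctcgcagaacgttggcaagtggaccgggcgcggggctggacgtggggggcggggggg
Hist2h3c2-ps: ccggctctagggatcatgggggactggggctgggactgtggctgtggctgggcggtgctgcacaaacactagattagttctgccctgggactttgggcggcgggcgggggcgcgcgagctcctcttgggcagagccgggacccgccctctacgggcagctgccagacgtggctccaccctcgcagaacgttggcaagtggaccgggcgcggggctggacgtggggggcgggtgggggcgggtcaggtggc
The windows share an unbroken run of 231 bases, offset by 15 bases. The longest run that Hist2h3c1 shares with the window of Hist2h3b, the third H3 gene of the locus, is 7 bases. Hist2h3b, which also encodes H3.2, had values of 10.29, 9.86 and 10.22 in Fasted livers and 10.07, 10.28 and 10.42 in Refed livers, which overlap, with a change of -0.13 (interval -0.42 to 0.15) that ran between -0.23 and -0.0021 with 1 array left out, nearest to 0 without Fasted 2.

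The other 8 H3 genes lie in Hist1. Hist1h3i was next by p-value, with values of 7.60, 7.71 and 7.95 in Fasted livers, against 7.91, 7.99 and 8.21 in Refed livers, overlapping narrowly (change -0.28, adjusted p = 0.28). Hist1h3a and Hist1h3d, named for their signal, had changes of -0.14 (-0.048 without Refed 3 and -0.059 without Fasted 2) and 0.02. Hist1h3f was dim on every array, between 2.92 and 3.48, with a change of -0.21 (-0.076 without Fasted 1 and -0.33 without Fasted 2). The remaining 4 (Hist1h3c, Hist1h3e, Hist1h3g and Hist1h3h) had changes between -0.28 and 0.17, all with overlapping arrays. For Hist1h3h the Refed mean lay 6.54 below the livWTR mean, the widest gap between the tables. Of the 11 H3 genes, 9 had a negative change, and the class median was -0.18. Only 1 of them had all Fasted arrays below all Refed arrays (9.1 percent), near the 10.7 percent of all genes tested.

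H2A pairs with H2B on either side of the H3 and H4 tetramer. The H2A gene with the smallest adjusted p was Hist2h2aa1, with values of 10.56, 10.35 and 10.52 in Fasted livers, against 10.75, 10.85 and 10.93 in Refed livers. All Fasted arrays lay below all Refed arrays, with a change of -0.37 (interval -0.57 to -0.16, adjusted p = 0.071). The cluster that represents it, of type 3, lies on the minus strand at chr3:96043639-96044216, beside Hist2h3c2-ps. RefSeq places Hist2h2aa1 (now H2ac18) on the plus strand. With the shift between builds seen for Hist2h3c1, the RefSeq start falls at that of another cluster of the symbol, chr3:96049420-96050038. The minus-strand cluster lies at a different position, so its change need not be that of the RefSeq gene. Another cluster under the same symbol, on the plus strand at chr3:96049477-96052431, overlaps that of Hist2h3c1 on the same strand. It had values of 9.18, 9.08 and 9.25 in Fasted livers, against 10.14, 9.77 and 10.17 in Refed livers. With every cluster tested as a row of its own, its change of -0.86 had an adjusted p of 0.0068, and it was 1 of 2 histone clusters called among 67. The values of these overlapping clusters are not independent of each other. The cluster at the RefSeq start, chr3:96049420-96050038 on the plus strand and also of type 3, had a change of 0.15 (interval -0.21 to 0.51).

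Hist2h2ac, from the same locus, had the next smallest p-value of the class, with values of 9.37, 9.37 and 9.44 in Fasted livers, against 9.59, 9.70 and 9.79 in Refed livers (change -0.30, adjusted p = 0.11). In Hist1, Hist1h2ak had values of 7.40, 7.56 and 7.62 in Fasted livers, against 7.79, 7.79 and 7.92 in Refed livers, read by a type 1 cluster (change -0.30, adjusted p = 0.13). Hist1h2ad had values of 7.997, 8.10 and 8.10 in Fasted livers, against 8.30, 8.55 and 8.20 in Refed livers, from a type 3 cluster with a Refed mean minus livWTR mean of -1.95 (change -0.29, adjusted p = 0.22, and -0.18 without Refed 2). In each of these 3 genes every Fasted array lay below every Refed array, and none passed the test. The values of Hist1h2ag did not overlap either, at a change of -0.16. Hist3h2a, the H2A gene of the Hist3 locus, had values of 8.49, 8.46 and 8.53 in Fasted livers, against 8.61, 8.78 and 8.72 in Refed livers (change -0.21, adjusted p = 0.29). Its other cluster, also of type 1, had a change of 0.061 (interval -0.24 to 0.36) with overlapping arrays. Hist1h2ah, the other H2A gene named for its signal, had a change of -0.09 (-0.054 without Refed 3) with overlapping arrays.

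The one histone gene with a positive change above 0.5 was also of this class. Hist2h2ab had values of 5.20, 6.79 and 5.25 in Fasted livers and 4.88, 5.41 and 4.85 in Refed livers. Fasted 2 stood alone, the groups overlapped, and the change of 0.71 had an interval of -0.06 to 1.47. Its Refed mean lies 4.93 below its livWTR mean. Hist1h2aa, the testis-type H2A gene, had a change of -0.07. Over the 16 H2A genes the changes ran between -0.37 and 0.71, 11 were negative, and the median was -0.13. In 6 of them all Fasted arrays lay below all Refed arrays (37.5 percent, against 10.7 percent of all genes tested).

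Of the classes, H2B had the highest share of negative changes, 16 of 17, with a median of -0.16. In 5 of the 17 all Fasted arrays lay below all Refed arrays (29.4 percent, against 10.7 percent of all genes tested). Hist1h2bj had values of 10.19, 10.33 and 10.18 in Fasted livers, against 10.52, 10.45 and 10.62 in Refed livers (change -0.30, adjusted p = 0.13). The narrowest spread within groups among the named H2B genes was that of Hist1h2bf, with values of 10.43, 10.45 and 10.45 in Fasted livers, against 10.67, 10.66 and 10.76 in Refed livers (change -0.25, adjusted p = 0.16). Hist1h2bm, of type 1, had values of 8.47, 8.56 and 8.52 in Fasted livers, against 8.70, 8.81 and 8.81 in Refed livers (change -0.26, adjusted p = 0.17). In all 3 the groups were apart by a small margin that did not pass the test. Hist1h2bn had a change of -0.28 (adjusted p = 0.19), with all Fasted arrays below all Refed arrays and a Refed mean minus livWTR mean of -1.88. Hist1h2bc, also of type 1 and named for its signal, had values of 12.10, 12.27 and 12.19 in Fasted livers, against 12.38, 12.26 and 12.36 in Refed livers, overlapping at a single array (change -0.15, adjusted p = 0.55). Its other cluster, on the opposite strand, had a change of -0.27. The testis-type gene Hist1h2ba had a change of -0.07. Hist3h2ba, at 0.08, was the H2B gene with a positive change. The intervals of all 17 H2B genes lay within 1 of no change.

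In 5 of the 12 H4 genes all Fasted arrays lay below all Refed arrays (41.7 percent, against 10.7 percent of all genes tested). Among the 12 genes 9 had a negative change, and the median was -0.092. That median ran between -0.19 and -0.081 with 1 array left out, and was -0.19 without Fasted 3 and -0.15 without Refed 1. Hist1h4d, read by a type 1 cluster, had values of 12.14, 11.63 and 12.00 in Fasted livers, against 12.32, 12.34 and 12.32 in Refed livers. The Fasted arrays spread widely below the Refed arrays, which lay close together (SD 0.26 in Fasted and 0.014 in Refed livers, n = 3 each), and the change was -0.40 (interval -0.67 to -0.13, adjusted p = 0.13). Without Fasted 2 it was -0.26 (adjusted p = 0.34). Hist1h4m had values of 10.46, 10.29 and 10.35 in Fasted livers, against 10.66, 10.57 and 10.64 in Refed livers (change -0.26, adjusted p = 0.18). Hist1h4a had values of 11.33, 11.06 and 11.37 in Fasted livers, against 11.47, 11.52 and 11.55 in Refed livers (change -0.26, adjusted p = 0.25, and -0.17 without Fasted 2). Both were separated without passing the test, as was Hist1h4i, at a change of -0.23 (adjusted p = 0.31). Hist4h4, the only gene of its locus, had a change of -0.08 and Hist2h4 one of -0.16, both with overlapping arrays.

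The 5 H1 genes all have type 1 clusters and did not move together. Of these, 3 had a negative change, and the class median was -0.022. That median ran between -0.080 and 0.034 with 1 array left out. Hist1h1c, which encodes the somatic linker histone H1.2, had values of 8.34, 8.32 and 8.18 in Fasted livers, against 8.62, 8.73 and 9.37 in Refed livers. All Fasted arrays lay below all Refed arrays, and Refed 3 stood well above the other Refed arrays. Its change was -0.63 (interval -0.997 to -0.26, adjusted p = 0.077), a level 1.55 times lower in Fasted livers that did not pass the test. Without Refed 3 the change was -0.40 (adjusted p = 0.12), and without Refed 1 it was called (adjusted p = 0.046). The other H1 genes had changes between -0.07 and 0.08, all with overlapping arrays. They were Hist1h1a, Hist1h1b and Hist1h1d, which encode the somatic subtypes H1.1, H1.5 and H1.3, and the testis-specific Hist1h1t. The difference between Hist1h1c and the other H1 genes was not tested.

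**Figure D3:**
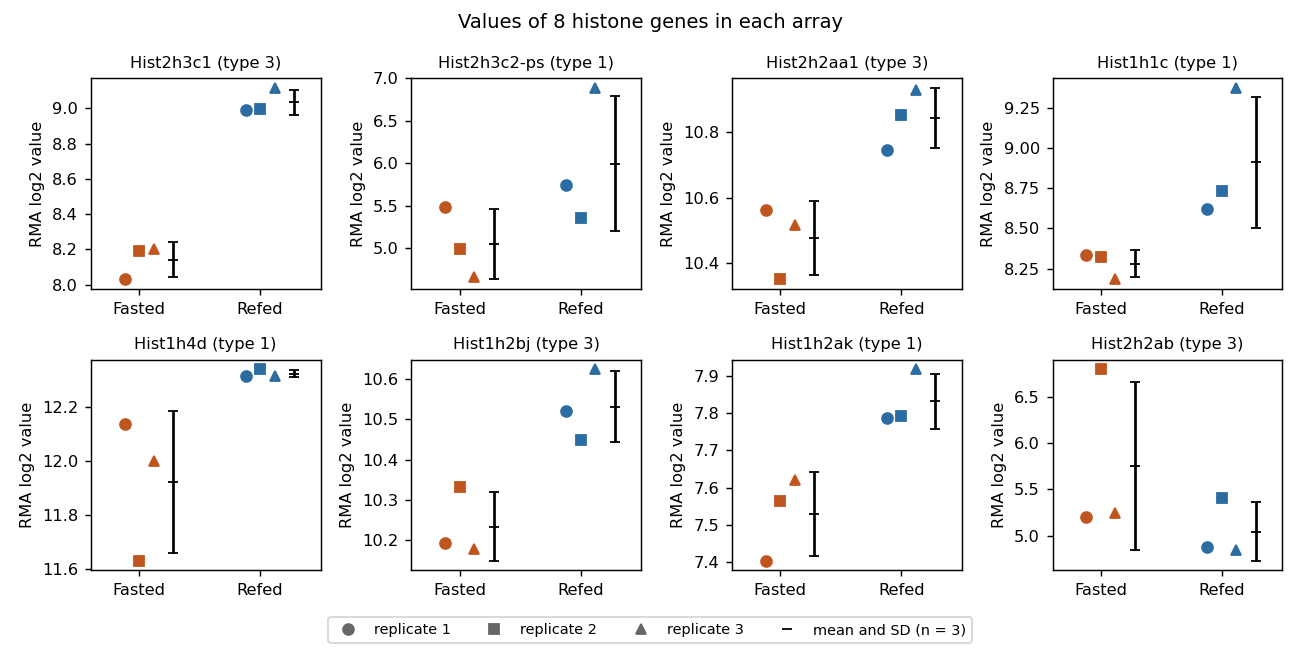
RMA log2 values (y axis) of 8 histone genes on the 3 Fasted arrays, at the left of each panel, and the 3 Refed arrays, with the mean and SD of each group as a bar. The groups are apart in 6 panels and overlap for Hist2h3c2-ps and Hist2h2ab, where Refed 3 and Fasted 2 stand away from the rest.

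By locus, Hist2 had the lowest median change, -0.29, with 8 of 9 genes negative, against -0.14 with 37 of 48 negative in Hist1 and -0.055 with 2 of 3 negative in Hist3. The Hist2 genes include near-identical copies and overlapping transcript clusters, and the difference between loci was not tested. Refed 3 was the highest array for 8 of the 9 Hist2 genes. Without Hist2h3c1 and Hist2h3c2-ps the median over the other 59 histone genes was -0.15. Of these, 17 had all Fasted arrays below all Refed arrays (28.8 percent, against 10.7 percent of all genes tested).

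Arrays within a condition were not alike. Each gene was centred on its mean over the 6 arrays, and the median of the centred values over the 61 histone genes was -0.11 in Fasted 1, -0.082 in Fasted 2 and -0.0020 in Fasted 3, against 0.014 in Refed 1, 0.076 in Refed 2 and 0.15 in Refed 3. The same median over all genes tested stayed between -0.025 and 0.024. Refed 3 was the highest array for 31 of the 61 histone genes, and Fasted 1 the lowest for 25. The levels of Fasted 3 and Refed 1 were close together, while Fasted 1 and Refed 3 made up the ends. Among the classes, H3 genes leaned on single arrays most, with Refed 3 highest for 9 of 11. For H2B genes Fasted 1 was lowest for 12 of 17. Without Refed 3 the median change of the 61 genes was -0.12.

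**Figure D4:**
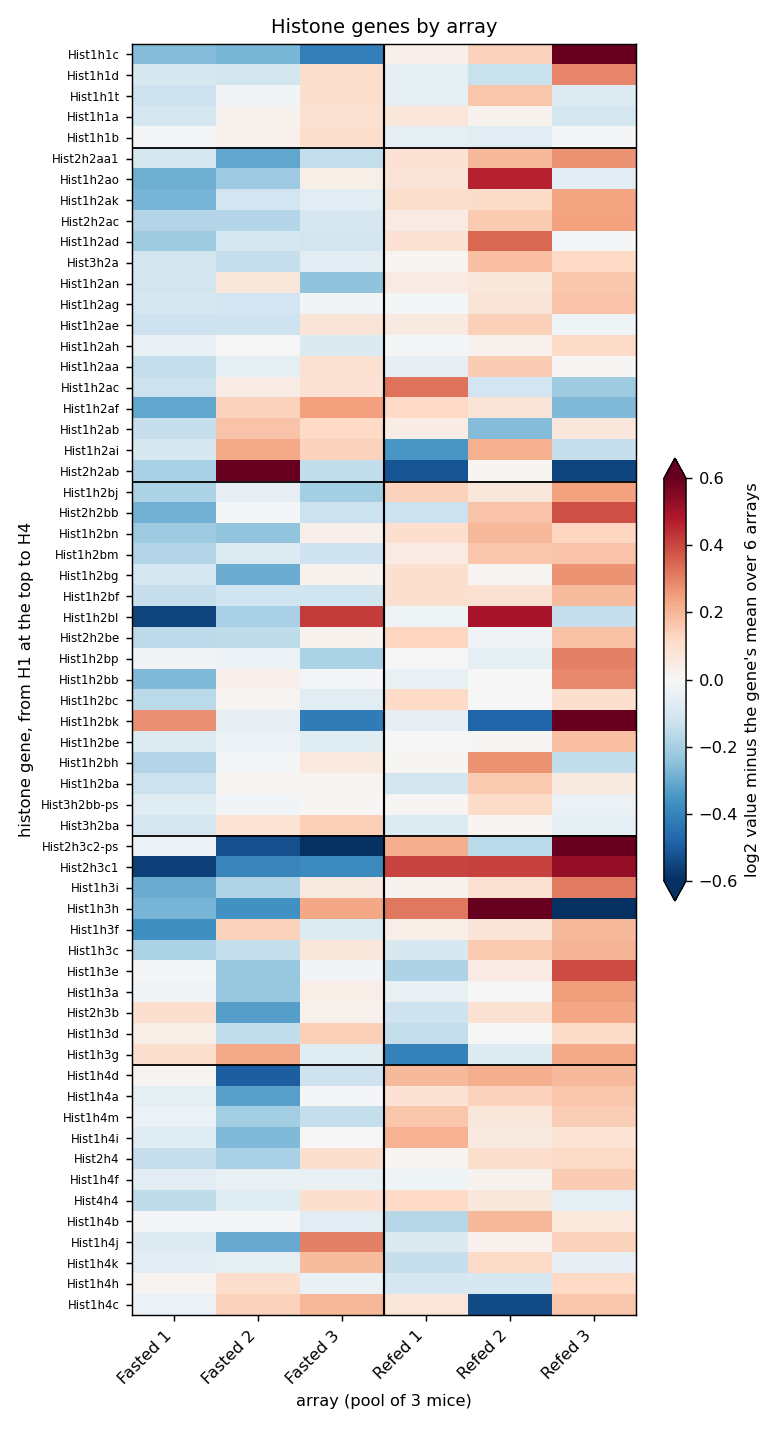
Log2 value of each histone gene on each array minus its mean over the 6 arrays (colour, log2, blue below and red above the mean, saturating at 0.6), with the Fasted arrays left of the black line and genes ordered by change within each class. Blue prevails in the Fasted columns and red in the Refed columns, most of all in Refed 3.

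Markers of other liver cells were also examined on these arrays, in short lists. Over all genes tested, limma called 1.61 percent lower and 1.38 percent higher. At an unadjusted p under 0.05 the shares were 7.74 percent lower and 6.32 percent higher. All 9 measured markers of Kupffer cells, the resident macrophages of the liver, had a negative change, and 2 were called, the complement receptor gene Vsig4 (-0.71, adjusted p = 0.00995, 0.057 without Fasted 1) and the complement component gene C1qb (-0.56, adjusted p = 0.037, which passed with 1 array left out only without Refed 1). The log2 of their summed level was 11.80, 11.87 and 11.80 on the Fasted arrays, against 12.00, 12.23 and 12.38 on the Refed arrays, so that Refed 3 was highest, as it was for the histone genes. Of 5 bile duct markers 1 was called lower, Sox9 (-0.53, not called without Fasted 1, Fasted 2 or Refed 3), a transcription factor of the bile duct lineage, and their summed level was 9.75 to 9.81 on the Fasted arrays, against 9.92 to 10.01 on the Refed arrays. The 9 measured hepatocyte markers had signals between 12.7 and 14.1 in this tissue labelled Liver, and limma called 0 of them (1 lower and 0 higher at an unadjusted p under 0.05). Erythroid markers summed to 13.6 to 13.8 on the Fasted arrays and 13.4 to 14.7 on the Refed arrays, with Refed 2 highest and 0 called. Endothelial markers ran the other way, with 7 of 8 positive, a median change of 0.18 against -0.18 for the Kupffer cell markers, 0 called and 3 higher at an unadjusted p under 0.05. Their summed level was 12.4 to 12.5 on the Fasted arrays and 12.2 to 12.5 on the Refed arrays, with Refed 3 lowest. For stellate cells, lymphocytes and neutrophils 0 markers were called, with 1 lower and 0 higher at an unadjusted p under 0.05 in each list. The part of these cell types in the histone values was not tested. In RNA from whole liver, fewer cells of a type and less RNA in each cell cannot be told apart.

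The machinery around histone supply was examined with 4 lists of genes beside the histones and a list for mitosis. The list for transcription, processing and turnover of replication-dependent histone mRNA had 28 genes, all measured, with a median change of -0.020, 1 called higher and 0 lower. At an unadjusted p under 0.05, 6 were lower and 3 higher, against 7.74 percent lower and 6.32 percent higher over all genes tested. All Fasted arrays lay below all Refed arrays for 5 genes and above them for 4, against 10.7 and 8.13 percent of all genes. With 1.38 percent of all genes called higher, a single call in a list of this size is not a result about the list, and the same holds for the lists that follow. The one called was Zcchc11, a terminal uridylyl transferase that adds uridines to RNA ends, with values of 9.51, 9.38 and 9.23 in Fasted livers, against 8.86, 8.73 and 8.93 in Refed livers (change 0.53, adjusted p = 0.017). The call was lost without Fasted 1, Fasted 2 or Refed 1. Mbnl2, a splicing regulator of the muscleblind family, had values of 10.70, 10.66 and 10.66 in Fasted livers, against 10.95, 11.02 and 10.99 in Refed livers, and did not pass the test (change -0.31, adjusted p = 0.073). Pou2f1, which encodes Oct-1, went the other way, at 8.44, 8.27 and 8.36 in Fasted livers, against 7.91, 7.70 and 8.16 in Refed livers. It did not pass the test either (change 0.43, interval 0.17 to 0.69, adjusted p = 0.086). Slbp, the stem-loop-binding protein, had values of 7.18, 7.07 and 7.49 in Fasted livers and 7.21, 7.12 and 7.27 in Refed livers (change 0.05, interval -0.20 to 0.30). Npat, the cyclin E and Cdk2 substrate that activates histone gene transcription, had a change of 0.13 (interval -0.15 to 0.42). Neither differed beyond the spread between arrays. Lsm11, part of the U7 snRNP that guides cleavage of the histone 3' end, had a change of 0.04 (interval -0.15 to 0.22).

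Replication-independent variants are histones made largely outside DNA synthesis, most of them from genes with polyadenylated mRNAs. The division is not strict for every gene listed, H2afx among them. Of the 12 variant genes 0 were called by limma, 1 was lower and 0 higher at an unadjusted p under 0.05, and the median change was -0.023. All Fasted arrays lay below all Refed arrays for 2 of the 12 and above them for 0, against 10.7 and 8.13 percent of all genes tested. H2afx, which encodes H2A.X, had values of 7.52, 8.08 and 7.68 in Fasted livers and 8.07, 7.98 and 8.32 in Refed livers, which overlap (change -0.36, interval -0.68 to -0.05, adjusted p = 0.27). H3f3a, an H3.3 gene, had values of 10.98, 10.67 and 11.06 in Fasted livers, against 11.10, 11.25 and 11.11 in Refed livers, which do not overlap (change -0.24, interval -0.49 to 0.0033, adjusted p = 0.36). Neither passed the test. H3f3b, the other H3.3 gene, had a change of -0.03 (interval -0.23 to 0.17), H2afz, which encodes H2A.Z, one of -0.02 (interval -0.22 to 0.19), and the linker variant H1f0 one of 0.03 (interval -0.16 to 0.23). Of 22 measured chaperone and nucleosome assembly genes 1 was called, Hjurp, the chaperone of the centromeric H3 variant, which was higher at 9.73, 9.66 and 9.41 in Fasted livers, against 9.23, 8.94 and 9.003 in Refed livers (change 0.54, adjusted p = 0.028). The Hjurp call was lost without Fasted 1, Fasted 2, Refed 2 or Refed 3. The median of that list was -0.0092.

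Genes of S phase and DNA replication, 36 in all, had a median change of 0.027, with 16 negative and 20 positive. The one called was the kinase gene Cdk2, higher in Fasted livers at 8.21, 8.12 and 7.96, against 7.70, 7.66 and 7.71 in Refed livers (change 0.40, adjusted p = 0.042), and the call was lost when any array other than Fasted 3 was left out. Pcna, the sliding clamp of DNA polymerase, had values of 9.37, 9.81 and 9.17 in Fasted livers and 9.31, 9.39 and 9.34 in Refed livers, which overlap. The 24 genes of G2 and mitosis had a median of 0.0093 and 1 called, the centrosomal kinase gene Nek2, higher in Fasted livers (change 0.43, adjusted p = 0.017). That call was lost without Fasted 1, Fasted 2, Refed 1 or Refed 3. The proliferation marker Mki67 had values of 5.90, 5.96 and 6.08 in Fasted livers and 5.71, 6.01 and 6.03 in Refed livers. Topoisomerase gene Top2a had values of 5.21, 5.29 and 5.29 in Fasted livers and 5.23, 5.30 and 5.23 in Refed livers, a change of 0.0075 (interval -0.17 to 0.19). In both the groups overlapped.

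**Figure D5:**
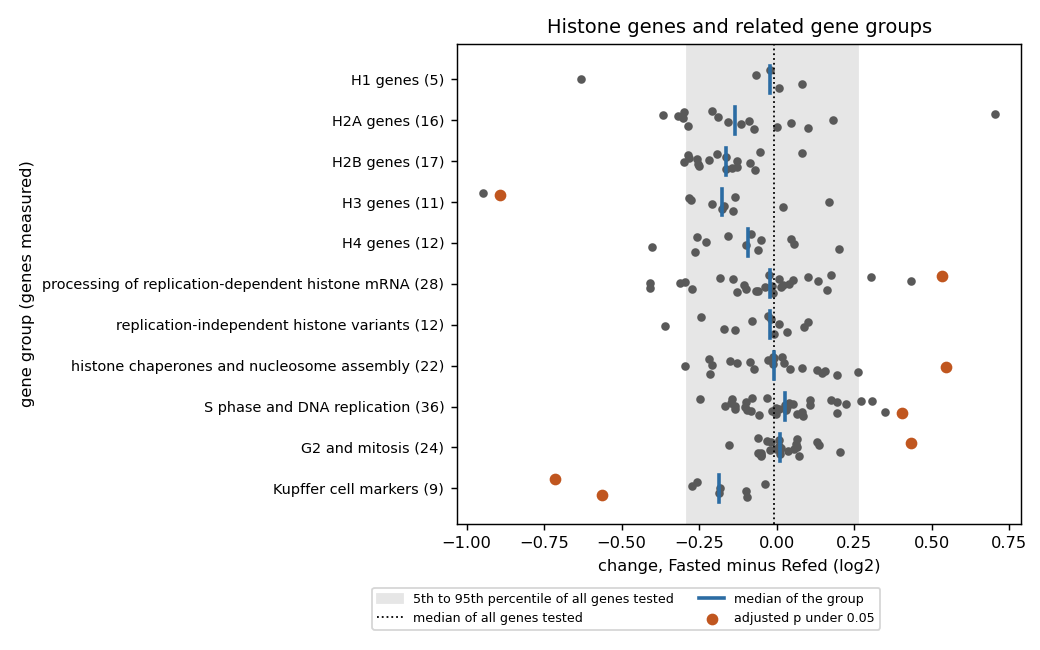
Change of each gene (x axis, Fasted minus Refed, log2) in the 5 histone classes, the 5 related lists and the Kupffer cell markers, with the median of each group as a blue bar, called genes in orange and the 5th to 95th percentile of all genes tested, -0.29 to 0.26, as a grey band. Medians of the core histone classes lie between -0.18 and -0.092, and those of the 5 lists between -0.023 and 0.027. The H1 median, -0.022, lies within the range of the lists.

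Promoters of histone genes are compact, and their known elements include a TATA box, CCAAT boxes and, in H2B genes, an octamer bound by Oct-1. The 250 bases before the start were available from RefSeq (GRCm38.p6) for 55 of the 61 genes, all 61 of which matched 1 RefSeq gene through its present symbol or a synonym. A window matched by symbol need not lie before the measured cluster. For Hist1h2ai, Hist1h2ao, Hist1h4m and Hist2h2aa1 the window is on the plus strand, whereas the cluster that stands for the gene is on the minus strand. The TATA box was searched as TATAAA, the CCAAT box by the letters of its name and the octamer as ATTTGCAT, each on both strands. TATAAA was found in 26 of 55 histone windows (47.3 percent), against 12.4 percent of 32851 windows of the same length before all annotated starts. CCAAT was found in 45 (81.8 percent), against 33.8 percent of all windows. The octamer ATTTGCAT was found in 13 (23.6 percent), against 1.60 percent. By class, CCAAT was in all 5 H1, all 16 H2A and all 14 H2B windows, in 7 of 9 H3 windows and in 3 of 11 H4 windows. The octamer was in 7 H2A and 6 H2B windows and in 0 of the others. Divergent H2A and H2B neighbours share parts of their windows, so these counts are not independent. A match describes letters and is not a binding site.

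Examples of windows from the genes described above are shown for contrast with Hist2h3c1 and Hist2h3c2-ps, which hold none of the 3 motifs, with every match in capitals. The windows of 4 H4 genes (Hist1h4b, Hist1h4h, Hist1h4j and Hist4h4) hold none either, so that 6 of the 55 windows lack all 3. Hist2h2ac lies at chr3:96220881-96221130 on the minus strand, and Hist1h4d and Hist1h1c lie on the plus strand at chr13:23581318-23581567 and chr13:23738557-23738806, all on GRCm38.p6.
Hist2h2ac: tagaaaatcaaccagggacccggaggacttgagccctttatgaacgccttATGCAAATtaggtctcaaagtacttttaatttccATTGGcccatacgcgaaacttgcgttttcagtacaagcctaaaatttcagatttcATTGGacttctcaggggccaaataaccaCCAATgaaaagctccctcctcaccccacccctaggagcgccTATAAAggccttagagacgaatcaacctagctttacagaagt
Hist1h4d: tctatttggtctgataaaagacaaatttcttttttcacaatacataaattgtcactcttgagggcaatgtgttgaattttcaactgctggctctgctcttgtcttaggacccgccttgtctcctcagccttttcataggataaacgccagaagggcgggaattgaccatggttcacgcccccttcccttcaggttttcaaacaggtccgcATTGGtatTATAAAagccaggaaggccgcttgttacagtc
Hist1h1c: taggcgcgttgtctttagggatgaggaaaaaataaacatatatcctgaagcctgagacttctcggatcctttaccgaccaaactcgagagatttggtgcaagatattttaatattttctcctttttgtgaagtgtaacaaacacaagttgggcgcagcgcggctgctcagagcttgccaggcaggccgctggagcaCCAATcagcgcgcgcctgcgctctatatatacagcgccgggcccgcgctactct
Hist2h2ac holds the octamer on the opposite strand with its first base 200 bases before the start, CCAAT boxes 166, 111 and 83 bases before it, on either strand, and TATAAA 42 bases before it. In Hist1h4d TATAAA begins 32 bases and a CCAAT box on the opposite strand 40 bases before the start. Hist1h1c holds a single CCAAT box, 54 bases before the start. Only the exact letters TATAAA were counted as a TATA box, and similar letters such as the tatata in this window were not. Whether any of these matches goes with the changes was not tested.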

How the data were processed

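Per the labels, RNA of 3 livers was pooled for each of 6 arrays. The authors deposited RMA log2 values for 34760 transcript clusters, made in Affymetrix Expression Console 1.3.1.187 per the submitters' processing notes, and an annotated table that names NCBIM37. That table's log2 fold changes and p-values are the authors' own comparison and were not used, nor were 12 columns of values per array with no labelled sample. Its livWTR mean was used to compare the tables and, in an alternative, to leave out clusters on which they differ by over 1. Clusters with a single symbol were kept (24446), and the one with the highest mean over the 6 arrays stood for a gene (21626 genes), and dim genes were kept. The 2 conditions were set against each other in limma 3.58.1 (lmFit, eBayes) in R 4.3.3, two-sided, with Benjamini-Hochberg adjustment over all genes and a threshold of 0.05. The script was tested on simulated data. Each group has 3 arrays, an exact permutation test of which cannot go below 0.1, and their number limits the precision. Array medians lay between 6.73 and 6.81.

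The members, gene lists and marker lists were chosen with earlier results of these data known. Genes named are those called, in each class the 4 with the smallest adjusted p and the 3 with the highest mean, and the called genes of each list. Hist2h2ab, Hist1h2aa, Hist1h2ba, Hist3h2a, Hist3h2ba, Hist4h4, Hist2h4, the H3 genes given by range and Slbp, Npat, Lsm11, Mbnl2, Pou2f1, H2afx, H3f3a, H3f3b, H2afz, H1f0, Pcna, Mki67 and Top2a fall outside this rule and were named after their values were seen. Alternatives covered the representation of a gene, the gap between tables, cross-hybridisation, dim genes, normalisation, scaling, the variance prior, array weights, the replicate number as a block and each array left out.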

Additional observations from a re-analysis of the deposited data

How the results depend on the processing

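Hist2h3c1 was called lower in all 16 alternatives in which its cluster enters, with changes between -0.94 and -0.84 and adjusted p between 0.00037 and 0.015. With type 1 clusters only, which leave it out, 0 of 34 histone genes were called and 8 had all Fasted arrays below all Refed arrays, against 10.4 percent of all genes. The count called lower, 1 in the report, was 2 with the filter on dim genes and with an intensity trend in the prior, where Hist2h2aa1 was added, and 2 of 67 with each cluster as a row, an alternative chosen after seeing the data. Leaving out 1 array gave 1 to 2, with Hist1h1c added without Refed 1 and Hist2h3c2-ps without Refed 2. The count called higher was 0 in all 18 alternatives. The count with all Fasted arrays below all Refed arrays was 18, between 19 and 28 with 1 array left out (28 without Fasted 3, when 20.0 percent of all genes did so), and 32 without Fasted 3 and Refed 2, when 25.8 percent did. The median change stayed between -0.19 and -0.12 in all 17 alternatives. Genes near 0 changed sign: Hist1h3d was -0.14 as the mean of its clusters, -0.29 from its type 1 cluster, -0.040 without Fasted 3 and Refed 2 and between -0.045 and 0.10 with 1 array left out, and Hist1h1a was -0.030 with array weights, -0.026 without Fasted 3 and Refed 2 and between -0.045 and 0.059 with 1 left out. With 1 array left out, Hist1h1t lay between -0.080 and 0.055 and Hist1h1d between -0.15 and 0.062, and Hist1h1b was 0.048 without Fasted 3. The causes were not tested.

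The labels do not say that the replicate numbers pair the samples. Deviations of same-numbered arrays from their group means correlated at 0.069, -0.22 and -0.33, and those of other pairs between -0.31 and 0.44. Deviations within a group are tied to each other, so these values cannot decide whether the replicate number pairs the arrays. With the number as a block the histone count lower stayed at 1, the S phase and mitosis lists had 0 called each, and 455 genes were called across the array, against 647. That total was 186 with a prior from all clusters, 368 without Fasted 3 and Refed 2 and between 265 and 604 with 1 array left out (265 without Fasted 1, 375 without Fasted 2, 332 without Refed 3). With 1 array left out, the list for histone mRNA transcription, processing and turnover had 0 to 2 called (0 without Fasted 1, Fasted 2 or Refed 1). Chaperones had 0 to 1 (1 without Fasted 3 or Refed 1), S phase 0 to 1 (1 without Fasted 3), mitosis 0 to 1 (1 without Fasted 3 or Refed 2) and the variants 0. The 3 pools in a group limit each interval, and summarised values do not show which genes lie above background.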
